A study of Homo sapiens with 2 samples.

Results

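SOX genes encode transcription factors that share a DNA-binding HMG box, and 10 of them were followed here among the 21115 genes measured in HCT116, a human cell line established from a colorectal carcinoma. The 10 are SOX2, SOX4, SOX6, SOX7, SOX8, SOX9, SOX12, SOX13, SOX15 and SOX18, taken as the rows whose gene symbol equals one of these names. The members were chosen by their values in both libraries, so the levels and ratios below describe these libraries and no test was made on them. One library came from cells treated for 8 h with 1 µM CB-5083, an inhibitor of the ATPase p97 (gene VCP), and the other from cells treated for 8 h with the solvent DMSO. The labels give the same culture medium for both and no genetic change in either, and each treatment was 1 library. Differences therefore have no replicate check, and every interval below covers counting error only.

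The HMG box of SOX proteins binds the minor groove of DNA and bends it, and partner proteins decide much of which genes a SOX factor acts on. The family is divided by sequence into groups. SOX2 belongs to group B1, SOX4 and SOX12 to group C, SOX6 and SOX13 to group D, SOX8 and SOX9 to group E, SOX7 and SOX18 to group F and SOX15 to group G. In the intestine SOX9 marks the proliferating base of the crypt and Paneth cells and depends on WNT signalling, and SOX4 is likewise found in crypt progenitors of mice.

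Promoter sequence is printed for members that were lower with CB-5083, reached 5 CPM and have an entry in the RefSeq promoter table. CPM is a gene's counts scaled by the effective total of its library. The motif search used neither the direction nor the level of a gene. Windows of 5 of the 10 members were used (SOX2, SOX4, SOX6, SOX12 and SOX13). The other members were not searched for motifs, so nothing is said here about their promoters. SOX4 is shown because it had the lowest ratio of the 10 genes, and SOX12 and SOX13 beside it because their ratios lay within 2-fold. The sequences are the 250 bases before the annotated start, 5′ to 3′ on the plus strand of GRCh38.p14, from chr6:21593501-21593750 for SOX4, chr20:325302-325551 for SOX12 and chr1:204072865-204073114 for SOX13. Capitals mark the CCAAT box, the site of the factor NF-Y, in either direction (CCAAT or ATTGG), a motif chosen after these sequences had been seen.
SOX4: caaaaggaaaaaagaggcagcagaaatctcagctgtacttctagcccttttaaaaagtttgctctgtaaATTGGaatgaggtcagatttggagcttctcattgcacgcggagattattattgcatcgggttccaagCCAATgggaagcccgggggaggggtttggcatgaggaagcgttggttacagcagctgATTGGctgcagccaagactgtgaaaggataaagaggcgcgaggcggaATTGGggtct
SOX12: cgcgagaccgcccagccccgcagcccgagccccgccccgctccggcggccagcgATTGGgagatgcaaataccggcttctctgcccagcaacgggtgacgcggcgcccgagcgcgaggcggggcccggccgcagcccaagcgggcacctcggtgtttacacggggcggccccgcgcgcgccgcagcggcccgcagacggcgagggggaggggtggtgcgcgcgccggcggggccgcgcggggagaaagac
SOX13: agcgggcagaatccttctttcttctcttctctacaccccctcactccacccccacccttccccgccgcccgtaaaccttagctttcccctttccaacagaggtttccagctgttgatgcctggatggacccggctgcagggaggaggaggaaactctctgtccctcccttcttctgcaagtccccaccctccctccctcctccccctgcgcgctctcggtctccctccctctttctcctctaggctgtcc

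The stretch before SOX4 held 4 such boxes, beginning 181, 114, 57 and 10 bases before the start. SOX12 held 1, beginning 196 bases before the start, and SOX13 none. Of 35116 promoter windows of 300 bases (250 before and 50 after the start), 34.6% held at least 1 CCAAT on either strand and 0.991% held at least 4. Of the 9 member windows searched, 6 held at least 1, namely those of SOX2, SOX4 and SOX12 and some of SOX6. The GC content of the SOX4 window was 49.3%, against 80.3% for SOX12, 62.7% for SOX13 and a median of 58.7% over all windows. A match of letters is a description of the sequence and not evidence of binding.

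Other motifs were searched on both strands of the 9 windows of these 5 members. They were CTTTGA of TCF/LEF factors (in 12.9% of all windows), TGATGNAA of CHOP and ATF4 (3.62%), CCAAT followed after 9 bases by CCACG, the ER stress element, which contains a CCAAT box (0.0769%), TGANTCA of AP-1 (7.71%) and ACAATG of SOX factors themselves (10.8%). SOX6, which has 5 annotated starts, held CTTTGA in 2 windows, ACAATG in 2 and TGANTCA in 1. No window of SOX2, SOX4, SOX12 or SOX13 held any of these letters, which says nothing about the factors beyond these 300 bases.

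Most of the SOX genes had a lower level with CB-5083. Of the 10 members, 9 had a lower CPM and 1, SOX7, a higher one. Of all 18005 genes with a count in at least 1 library, 52.4% had a lower CPM with CB-5083. Of the 6041 among them with a mean under 1 CPM, where 4 of the members lie, 62.3% did. The ratio given throughout compares CB-5083 with DMSO on a log2 scale after 1 was added to each CPM, and a gene counted as lower or higher when this ratio reached 1 in size (2-fold) and the gene had at least 5 CPM in 1 library. By that rule 2 members were lower, SOX4 and SOX9, and none was higher. Among the 9543 genes of the whole table at that level, 4.91% were lower, 7.22% higher and 87.9% within 2-fold. Only 4 of the 10 members reached 5 CPM, and the other 6 could not be called. The median ratio of those 4 was -0.94 against 0.09 over all genes at that level, and 42.6% of all genes at that level had a ratio below 0. In bulk RNA, fewer cells expressing a gene and less RNA per cell cannot be told apart.

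**Figure D1:**
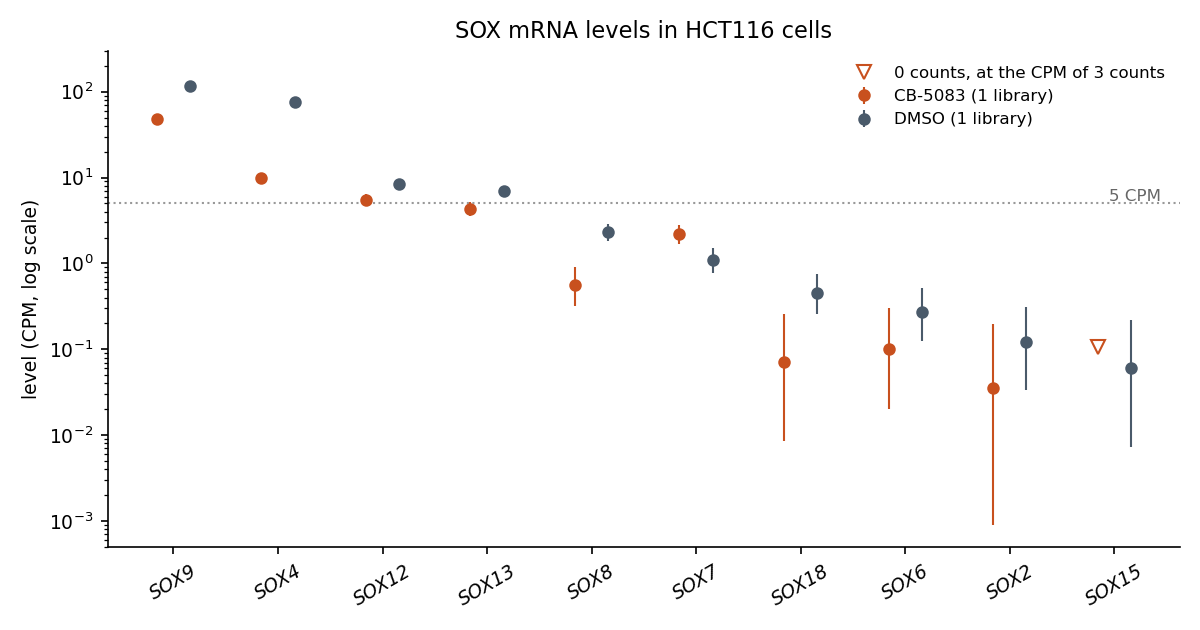
Level of each of the 10 SOX genes in CPM on a log axis, ordered by the DMSO level, with CB-5083 to the left of DMSO for each gene and 1 library per point. Bars are exact 95% Poisson intervals of the estimated counts, the open triangle stands for SOX15 with 0 counts, drawn at the CPM of 3 counts, and the dotted line is 5 CPM. SOX9 and SOX4 are the highest in both libraries and SOX7 alone lies higher with CB-5083.

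SOX4, a group C factor of progenitor cells, was the member with the largest difference. It lies on chromosome 6 from 21593972 to 21598849 (hg19, as are all coordinates of genes here, with starts counted from 1). Its estimated count was 284 with CB-5083 and 2526 with DMSO, which is 9.99 CPM (95% Poisson interval 8.86 to 11.2) with CB-5083 against 76.6 CPM (73.7 to 79.7) with DMSO. The intervals of the libraries were far apart. The fold, without a pseudocount, was 7.67-fold lower (95% exact counting interval 6.78 to 8.70). SOX4 held rank 5 from the lowest ratio among the 9543 genes, at -2.82.

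SOX9, the crypt and Paneth cell factor of group E, was the most expressed member in both libraries. It lies on chromosome 17 from 70117161 to 70122560. SOX9 had 1353 estimated counts with CB-5083 and 3889 with DMSO, or 47.6 CPM (45.1 to 50.2) with CB-5083 against 118 CPM (114 to 122) with DMSO. It was 2.48-fold lower (2.33 to 2.64), with a ratio of -1.29 and rank 234 from the lowest. AXIN2, a feedback gene of WNT signalling, was at 0.774 CPM with CB-5083 against 18.0 CPM with DMSO (23.2-fold lower, 15.2 to 37.3). A relation between SOX9 and AXIN2 was not tested.

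SOX12, the group C relative of SOX4, lies on chromosome 20 from 306239 to 310867. It was at 5.45 CPM (4.63 to 6.38) with CB-5083 and 8.31 CPM (7.36 to 9.36) with DMSO. The estimated counts were 155 with CB-5083 and 274 with DMSO. It was 1.52-fold lower (1.25 to 1.87), within the 2-fold threshold. SOX13, a group D factor that lacks a known transactivation domain and acts with partner proteins, lies on chromosome 1 from 204042246 to 204096871. It was at 4.31 CPM (3.58 to 5.14) with CB-5083 and 6.98 CPM (6.11 to 7.95) with DMSO, and so 1.62-fold lower (1.30 to 2.04). The ratios of SOX13 and SOX12, -0.59 and -0.53, held ranks 1182 and 1369 from the lowest. Scaled by library totals, SOX13 was 2.06-fold and SOX12 1.93-fold lower. Their ratios were then -0.88 and -0.83, still short of the threshold.

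SOX8, the group E relative of SOX9, lies on chromosome 16 from 1031808 to 1036979 and was little expressed. It had 16 estimated counts with CB-5083 and 76 with DMSO, or 0.563 CPM (0.322 to 0.914) with CB-5083 against 2.31 CPM (1.82 to 2.89) with DMSO. The fold was 4.10-fold lower (2.37 to 7.53), and the ratio with the pseudocount -1.08. SOX8 was not called because it stayed under 5 CPM in both libraries.

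SOX7, a group F factor of early endoderm and endothelium, was the only member with a higher level in the treated cells. Its row spans chromosome 8 from 10581278 to 10697299, and it had 62.2 estimated counts with CB-5083 and 36.3 with DMSO. That is 2.19 CPM (1.68 to 2.81) with CB-5083 against 1.10 CPM (0.773 to 1.52) with DMSO, or 1.99-fold higher (1.30 to 3.08). With the pseudocount the ratio was 0.60. Scaled by library totals the fold was 1.57-fold. Its estimated counts were not whole numbers, and its span covers that of PINX1, a telomerase inhibitor at 15.2 CPM with CB-5083 and 16.9 CPM with DMSO. How the reads were divided between these genes was not tested.

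The other members were close to the detection limit. Where no read was counted, up to 3 counts remain possible, or 0.106 CPM with CB-5083 and 0.0910 CPM with DMSO. SOX18, a group F factor of blood and lymph vessels, lies on chromosome 20 from 62679079 to 62680979. It had 2 estimated counts with CB-5083 and 15 with DMSO, or 0.0704 CPM with CB-5083 against 0.455 CPM with DMSO, and so 6.47-fold lower with an interval of 1.504 to 58.3. SOX6, a group D factor of cartilage, muscle and red blood cells on chromosome 11 from 15987995 to 16760190, had 2.88 estimated counts with CB-5083 and 9.03 with DMSO. Its fold, 2.70-fold lower, had an interval from 0.664 to 16.2 that includes 1.

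SOX2, the pluripotency factor of group B1, lies on chromosome 3 from 181429712 to 181432223 and had 1 estimated count with CB-5083 and 4 with DMSO. It was 3.45-fold lower, with an interval from 0.341 to 170 that includes 1, so no difference was detectable at this depth. SOX15, the sole member of group G, on chromosome 17 from 7491498 to 7493488, had 0 counts with CB-5083 and 2 with DMSO, both under the limit of 3 counts, and no fold is given. Of the 9 members with counts in both libraries, the counting interval lay wholly below a fold of 1 for 6 and above it for 1. The share of all genes whose interval excludes 1 was not computed. These counts therefore do not set the members apart from other genes.

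**Figure D2:**
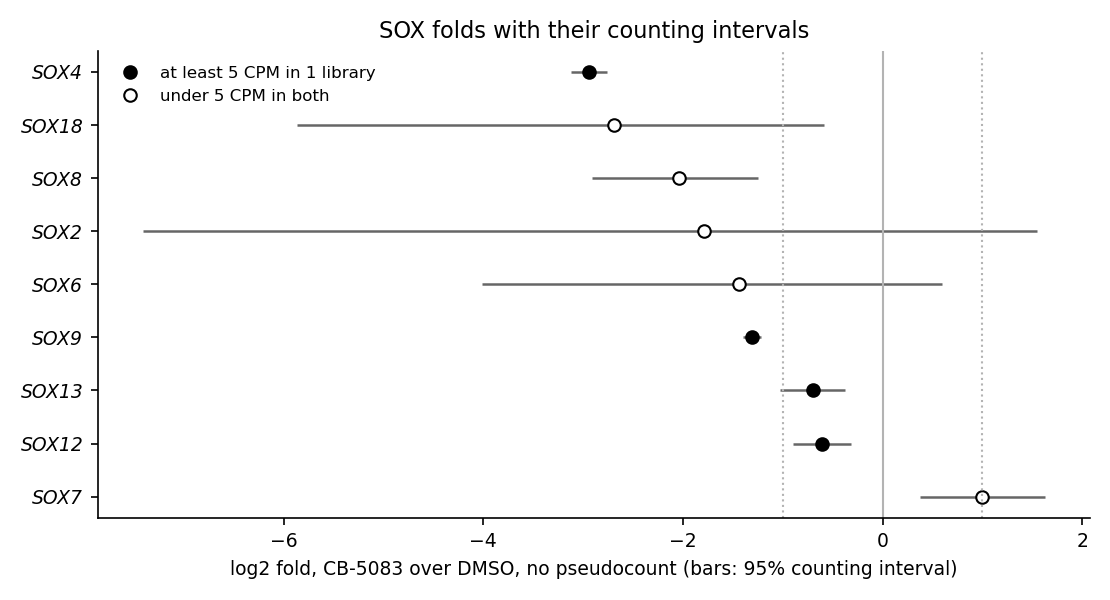
Log2 fold of CB-5083 over DMSO without a pseudocount for the 9 SOX genes with counts in both libraries, ordered from SOX4 at the top to SOX7 at the bottom, with 95% exact counting intervals as bars. Filled points reached 5 CPM in 1 library, and dotted lines mark 2-fold. The intervals of SOX2 and SOX6 include 0, that of SOX4 is narrow and lies below -2, and that of SOX7 lies above 0.

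The other SOX genes of the family were looked for as well. Of 9 listed, 1 was found, SOX30, a group H factor of the testis, and the other 8 (SOX1, SOX3, SOX5, SOX10, SOX11, SOX14, SOX17 and SOX21) were not analysed here. SOX30, on chromosome 5 from 157052687 to 157098488, had 0 counts with CB-5083 and 13 with DMSO (0.394 CPM). Its 95% Poisson interval was up to 0.130 CPM with CB-5083 and 0.210 to 0.675 CPM with DMSO, and no fold is given.

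The balance between relatives of a group was described for 4 pairs. The share of each relative in the summed counts of a pair does not depend on how the libraries are scaled to each other. SOX4 made up 64.7% of the counts of SOX4 and SOX12 with CB-5083 (95% exact binomial interval 60.0 to 69.2) against 90.2% with DMSO (89.1 to 91.3). SOX7 made up 96.9% of the counts of SOX7 and SOX18 with CB-5083 (89.2 to 99.6) against 70.8% with DMSO (56.4 to 82.6). In both pairs the intervals of the libraries did not overlap, but these counts are among the values by which the members were chosen, and no test was made. SOX18 had only 2 counts with CB-5083 and 15 with DMSO.

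In the other pairs the intervals overlapped. SOX9 made up 98.8% of the counts of SOX9 and SOX8 with CB-5083 (98.1 to 99.3) and 98.1% with DMSO (97.6 to 98.5). SOX13 made up 97.7% of the counts of SOX13 and SOX6 with CB-5083 (93.3 to 99.5) and 96.2% with DMSO (92.96 to 98.3). Between the most expressed members, SOX4 took 17.4% of the counts of SOX4 and SOX9 with CB-5083 (15.5 to 19.3) against 39.4% with DMSO (38.2 to 40.6).

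**Figure D3:**
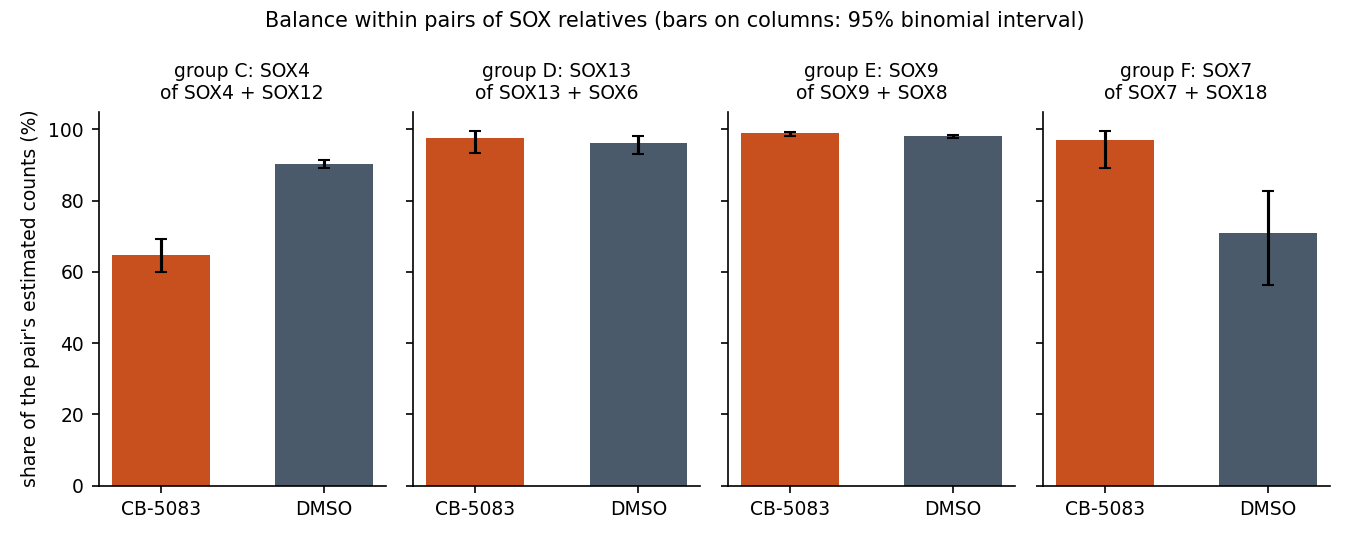
Share of the first gene in the summed estimated counts of each pair of relatives, in percent from 0, with CB-5083 left of DMSO and 95% exact binomial intervals as bars. The share of SOX4 is 64.7% with CB-5083 against 90.2% with DMSO, that of SOX7 is 96.9% against 70.8%, and the group D and E pairs differ by under their intervals.

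Summed over the 10 members, the family had 1999 estimated counts with CB-5083 and 7062 with DMSO, or 70.3 against 214 CPM (3.05-fold lower, 2.90 to 3.20). SOX9 and SOX4 together made up 81.9% of these counts with CB-5083 (80.2 to 83.6) and 90.8% with DMSO (90.1 to 91.5). SOX9 alone took 67.7% with CB-5083 and 55.1% with DMSO. SOX4 took 14.2% with CB-5083 and 35.8% with DMSO, SOX12 7.76% with CB-5083 and 3.88% with DMSO, and SOX7 3.11% with CB-5083 and 0.514% with DMSO. The other 8 members summed to 12.7 CPM with CB-5083 and 19.6 CPM with DMSO (1.54-fold lower, 1.35 to 1.76).

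Levels of different genes were compared per length, as CPM per kb of the median protein-coding transcript in GENCODE 29. SOX9 led in both libraries, at 12.1 CPM per kb with CB-5083 (11.5 to 12.8) and 30.04 with DMSO (29.1 to 31.0). SOX4 was at 1.71 CPM per kb with CB-5083 (1.51 to 1.92) and 13.1 with DMSO (12.6 to 13.6). SOX13 was at 2.11 CPM per kb with CB-5083 (1.76 to 2.52) and 3.43 with DMSO, and SOX12 at 1.18 with CB-5083 (1.00 to 1.38) and 1.80 with DMSO (1.59 to 2.02).

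In the DMSO library the per-length order was thus SOX9, SOX4, SOX13, SOX12, SOX8 (0.756 CPM per kb, 0.596 to 0.947) and SOX7 (0.343, 0.240 to 0.474), with intervals that did not overlap between neighbours. In the CB-5083 library SOX13 and SOX4 overlapped, and SOX7 (0.681 CPM per kb, 0.522 to 0.872) stood before SOX8 (0.185, 0.106 to 0.2998). SOX18, SOX6, SOX15 and SOX2 were at most 0.244 CPM per kb in both libraries, with overlapping intervals from one to the next. The place of SOX13 depends on its length. With the longest transcript it had 1.201 CPM per kb with CB-5083, below SOX4, and 1.95 with DMSO. Both values lay inside the SOX12 intervals given above, so SOX13 was then not separated from SOX12.

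Gene structure, which played no part in choosing the genes, differed among them. By GENCODE 29 the longest coding transcripts of SOX2, SOX4 and SOX12 have 1 exon, those of SOX7, SOX15 and SOX18 have 2, those of SOX8 and SOX9 have 3, that of SOX13 has 14 and that of SOX6 has 16. SOX4 and SOX12, both of a single exon, stood at 7.67-fold and 1.52-fold lower. The SOX4 transcript is 5852 bases long and the SOX12 transcript 4630.

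Neighbouring genes were read from the coordinates of the files. SOX4 overlapped no other row. The nearest gene before it, CDKAL1, a tRNA-modifying enzyme, was at 26.7 CPM with CB-5083 and 17.9 CPM with DMSO, and the nearest after it, the noncoding LINC00340, had 1 count with CB-5083 and 0 with DMSO. SOX9 overlapped none either. The nearest row before it, AL833139 at a distance of 0.227 kb, had 5.19 estimated counts with CB-5083 and 4.29 with DMSO. The nearest row after it, the noncoding LOC100499467 at a distance of 277 kb, was at 7.92 CPM with CB-5083 and 13.7 CPM with DMSO, a ratio of -0.73. SOX2 lies inside SOX2-OT, listed at 0 in both libraries. SOX15 lies within the span of MPDU1. SOX6, which ends at 16760190, overlaps C11orf58 only from 16760148 on. The library kit keeps strand, but the sources used here do not say whether reads were counted by strand. Within the stretches that such pairs share, reads of one gene therefore cannot be told from those of the other.

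**Figure D4:**
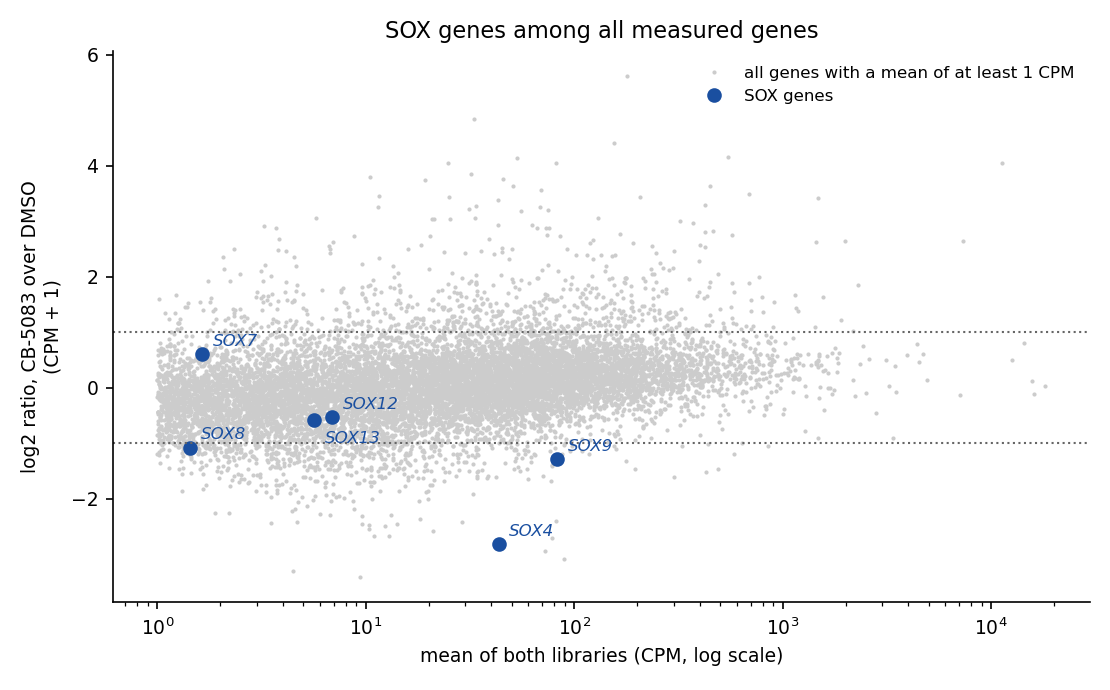
Ratio (log2 of CPM + 1, CB-5083 over DMSO) against the mean level of both libraries in CPM on a log axis for the 11964 genes with a mean of at least 1 CPM, with the 6 SOX genes at that level in blue and 2-fold as dotted lines. SOX4 lies near the lower edge of the cloud at -2.82, SOX9 below the lower line at -1.29, and SOX7 above 0 at 0.60.

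HMG boxes also occur in DNA-binding proteins outside the SOX family, among them the TCF/LEF factors. Of 11 listed, 6 reached 5 CPM, of which 1 was lower, 1 higher and 4 neither. Among all genes at that level 4.91% were lower, 7.22% higher and 87.9% within 2-fold. TCF7L2, the main partner of beta-catenin in intestinal epithelium, was at 71.6 CPM with CB-5083 and 165 CPM with DMSO (2.30-fold lower, 2.18 to 2.42). HBP1, a repressor of WNT target genes and of cell cycle entry, was at 49.3 CPM with CB-5083 and 17.8 CPM with DMSO (2.78-fold higher, 2.52 to 3.07). TCF7, a relative of TCF7L2, was at 10.8 CPM with CB-5083 and 19.9 CPM with DMSO, a ratio of -0.83 that reached -1.15 with library totals and so passed the threshold. LEF1 and TOX3 were at 0 in both libraries. BBX, the most expressed in the treated cells, was at 91.6 CPM with CB-5083 and 109 CPM with DMSO. TOX4 was at 83.1 CPM with CB-5083 and 50.5 CPM with DMSO, within 2-fold. The median ratio of the 8 measured factors (a mean of at least 1 CPM) was -0.42 against 0.04 over all 11964 such genes, and that of the 6 measured SOX genes -0.83.

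Of 12 SOX cofactors and partner factors 11 were found, and 9 reached 5 CPM, of which 1 was lower, 1 higher and 7 neither. The shares over all genes at that level were 4.91% lower, 7.22% higher and 87.9% within 2-fold. MEF2C, a partner of SOX18 in endothelial cells, was at 3.80 CPM with CB-5083 and 11.4 CPM with DMSO (2.99-fold lower, 2.41 to 3.74). CTBP2, a corepressor whose family binds SOX6, was at 392 CPM with CB-5083 and 159 CPM with DMSO (2.46-fold higher, 2.38 to 2.55), but its ratio of 1.29 was 0.95 with library totals, below the threshold. CTNNB1, which encodes beta-catenin, was at 415 CPM with CB-5083 and 393 CPM with DMSO. RBPJ, the Notch pathway factor, was at 275 CPM with CB-5083 and 149 CPM with DMSO, and the acetyltransferase genes CREBBP and EP300 were 1.504-fold (1.40 to 1.61) and 1.41-fold (1.32 to 1.504) higher, all within 2-fold. With library totals CREBBP was 1.19-fold and EP300 1.11-fold higher. The median of the 10 measured members was 0.19, and -0.11 with library totals.

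None of 10 regulators of SOX protein stability, modification and transport passed 2-fold, and all 10 reached 5 CPM, a level at which 87.9% of all genes lay within 2-fold. FBXW7, the ubiquitin ligase subunit that marks SOX9 for degradation, was at 49.7 CPM with CB-5083 and 39.3 CPM with DMSO. SDCBP, whose product syntenin stabilises SOX4, was at 224 CPM with CB-5083 and 173 CPM with DMSO. KPNB1, the importin beta that carries SOX9 into the nucleus, was the most expressed, at 1041 CPM with CB-5083 and 727 CPM with DMSO (1.43-fold higher, 1.41 to 1.46). With library totals KPNB1 was 1.13-fold higher. AKT1 had a ratio of -0.46 and PRKACA, the protein kinase A subunit, one of -0.43. The median of the list was 0.29, and -0.04 with library totals.

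**Figure D5:**
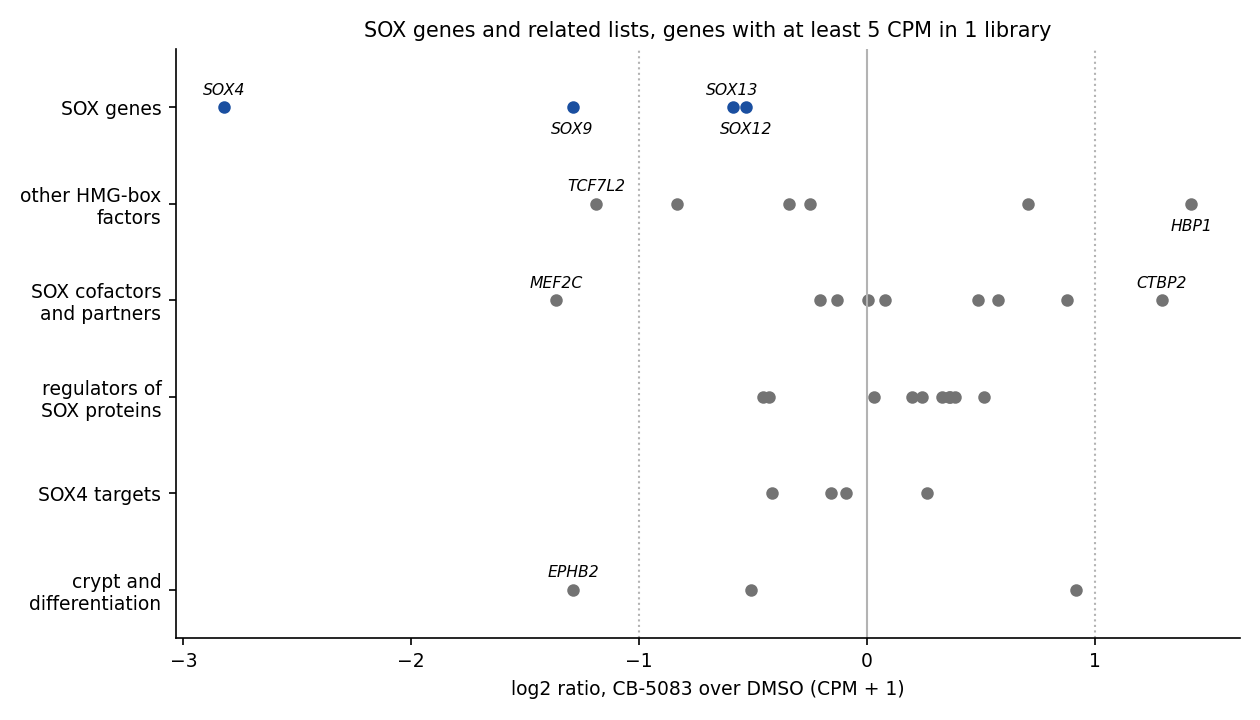
Ratio (log2 of CPM + 1, CB-5083 over DMSO) of each gene with at least 5 CPM in 1 library, for the SOX genes in blue and 5 lists of related genes in grey, with dotted lines at 2-fold. Names are given for all 4 SOX genes and for listed genes past 2-fold. The regulators of SOX proteins and the SOX4 targets lie within the dotted lines.

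Genes known as SOX targets in other tissues were mostly under 5 CPM, a level that 45.2% of all genes reached. Of 13 SOX9 targets of cartilage and Sertoli cells 12 were found, and none reached 5 CPM. COL9A3, a cartilage collagen chain, was the highest, at 1.13 CPM with CB-5083 and 2.22 CPM with DMSO (1.97-fold lower, 1.28 to 3.08). COL2A1, the main cartilage collagen, had 0 counts with CB-5083 and 1 with DMSO. All 7 pluripotency partners and targets of SOX2 that were found, of 9 listed, stayed under 5 CPM, LIN28A being the highest at 0.517 CPM with CB-5083 and 0.759 CPM with DMSO. Of 6 vascular targets of group F that were found, of 7 listed, EFNB2, the ephrin-B2 ligand, alone reached 5 CPM, at 58.7 CPM with CB-5083 and 57.8 CPM with DMSO, and VCAM1, CDH5 and PROX1 were at 0 in both libraries.

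All 4 genes listed as SOX4 targets reached 5 CPM, and none passed 2-fold, as for 87.9% of all genes at that level. EZH2, the Polycomb methyltransferase, was at 145 CPM with CB-5083 and 120 CPM with DMSO. DICER1, the microRNA-processing nuclease, was at 96.7 CPM with CB-5083 and 108 CPM with DMSO. TEAD2, a Hippo pathway factor, was at 7.25 CPM with CB-5083 and 7.79 CPM with DMSO, and TUBB3, a neuronal tubulin, at 4.08 CPM with CB-5083 and 5.79 CPM with DMSO. Their median ratio was -0.12 against 0.04 over all measured genes, while SOX4 itself was at -2.82.

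As to the series as a whole, the libraries held 31997800 estimated counts with CB-5083 and 29273790 with DMSO. Over all genes 689 were higher and 469 lower, against 371 higher and 994 lower with library totals, which moved the median ratio of all measured genes to -0.28 from 0.04. SOX4 and SOX9 were lower and no member higher under both scalings. Of 7 colon epithelial markers 5 reached 5 CPM, with EPCAM at 501 CPM with CB-5083 and 433 CPM with DMSO, whereas VIL1, which encodes villin, had 0 counts with CB-5083 and 1 with DMSO. Of the fibroblast markers COL1A1 was the highest, at 3.48 CPM with CB-5083 and 2.52 CPM with DMSO, and DCN, LUM and COL1A2 were at 0. The markers found for endothelium, leukocytes and glia summed to at most 0.123 CPM per list in a library, with CDH5, PTPRC, CD3E and GFAP at 0.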

How the data were processed

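RNA from HCT116 cells was made into stranded mRNA libraries, per the labels' protocols. RSEM 1.2.0 and hg19 stand in the submitters' processing notes. An aligner was not given in the sources used here. What the authors deposited is a signal for each gene, made by scaling the estimated counts of a library, with an upper quartile of 999.9 (CB-5083) and 999.7 (DMSO). Estimated counts were recovered by dividing by the commonest low step, 1.18 (CB-5083) and 1.08 (DMSO). Of values above 0, 55.3% (CB-5083) and 54.7% (DMSO) came out whole within 0.02, the rest being fractions. The authors' deposited log2 ratio is that of the scaled values, with no pseudocount.

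Counts were turned into CPM with TMM factors of 0.888 (CB-5083) and 1.126 (DMSO), with trims of 30% and 5%. Ratios used a pseudocount of 1 CPM. With 1 library per group there is no test. Fold intervals are 95% Clopper-Pearson, levels 95% Poisson, and cover counting error only. 1 row without values was left out.

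The members and lists were chosen with earlier results of these data known. Named are the SOX genes, genes past 2-fold, the most expressed and up to 3 more per list, neighbours, and AXIN2. Some genes outside this rule are named for their role or for a value of 0, chosen after their values were seen. Neighbours exclude rows spanning over 3 Mb. Scaling, pseudocount, filter, threshold, interval, transcript length and the source of the ratio were varied 1 at a time, and the scripts were tested on simulated data. Python 3.11.15, numpy 2.4.6, pandas 2.3.3 and scipy 1.17.1 were used.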

Additional observations from a re-analysis of the deposited data

How the results depend on the processing

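SOX4 and SOX9 stayed at least 2-fold lower, and no member was higher, under all 10 alternatives to scaling, pseudocount, filter, threshold and source of the ratio. A filter of 1 CPM, or none, added SOX8, and a 1.5-fold threshold added SOX13, each making 3 lower members. Over 6 alternatives and the values reported, the ratio ran from -3.14 to -2.81 for SOX4, from -1.63 to -1.28 for SOX9 and from 0.39 to 0.93 for SOX7. The median of the measured members ran from -1.09 to -0.83 over the same settings and was -0.49 with no filter on low values. Among all genes, library totals gave 371 higher and 994 lower, the authors' deposited log2 ratio 722 lower, and the 1.5-fold threshold 1660 higher and 1195 lower, against 689 and 469. No paired analysis was possible because each treatment was 1 library, and leaving out a library was not possible for the same reason. Depth limits SOX2, SOX6, SOX15 and SOX18, with at most 15 counts in a library. With a Poisson log-ratio interval the upper bound of the fold of SOX18 was 28.3 and that of SOX2 30.9, in place of 58.3 and 170.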

Other observations

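Genes of the intestinal crypt and of differentiation are those of the setting in which SOX9 and SOX4 are known. Of 15 listed, 6 were at 0 in both libraries, as were 14.7% of all genes, and 6 had a mean of at least 1 CPM, as did 56.7% of all genes. By level 3 reached 5 CPM, of which 1 was lower and 2 neither, where 4.91% of all genes were lower and 87.9% within 2-fold. EPHB2, a receptor that positions cells in the crypt, was at 1.90 CPM with CB-5083 and 6.09 CPM with DMSO (3.21-fold lower, 2.36 to 4.41). PROM1, which encodes the membrane protein CD133, was at 73.5 CPM with CB-5083 and 38.4 CPM with DMSO (1.92-fold higher, 1.79 to 2.06), and MSI1, an RNA-binding protein, at 3.80 CPM with CB-5083 and 5.83 CPM with DMSO. With library totals PROM1 was 1.51-fold higher. CDX2, the intestinal identity factor, was at 2.92 CPM with CB-5083 and 3.76 CPM with DMSO. The stem cell genes OLFM4, ASCL2 and SMOC2 and the differentiation genes ATOH1, MUC2 and CDX1 were at 0 in both libraries, and LGR5 had 0 counts with CB-5083 and 1 with DMSO. The median ratio of the 6 measured genes was -0.25 (-0.48 with library totals).

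Of the epithelial markers, CDH1, which encodes E-cadherin, was at 243 CPM with CB-5083 and 66.7 CPM with DMSO (3.65-fold higher, 3.48 to 3.83), and 2.88-fold higher with library totals. ADAM19, a membrane metalloprotease that is the nearest gene before SOX30, was at 5.25 CPM with CB-5083 and 31.1 CPM with DMSO, a ratio of -2.36.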
